A study of Mus musculus with 8 samples.

Results

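AA467197 and Ndufa4 are 2 of the 13420 mouse genes in the read count table, and both were detected in every library. AA467197 was chosen by its measured values, because its level in mixed WT cells was above that in cancer cells, and Ndufa4 was added as the gene of a related protein. The libraries came from small intestine organoids, which are 3-dimensional epithelial cultures, sorted on day 3 after mixing, and the question was which genes differ between WT cells kept alone and WT cells grown beside cancer cells. WT cells carried the mTmG transgene on C57BL/6, with an inducible Cre under the Rosa26 promoter according to the methods of the study, and live cells were sorted by membrane tdTomato. The engineered alleles of the cancer cells, on C57BL/6 (F6), included Villin-CreERT2, Apc fl/fl and Tr53 fl/R172H, and these cells were sorted by Dendra2. The Villin promoter limits Cre to intestinal epithelium, and the number of mice behind each line is not given in the sources used here. Each line was grown alone, or both together at a ratio of 2 (WT) to 1 (cancer), which gave the groups pure WT (wells A01 and A05), mixed WT (A02 and A06), pure cancer (A03 and A07) and mixed cancer (A04 and A08), with 2 libraries in each. Nothing in the labels says that the 2 wells of a group were separate cultures, so the p-values below measure the spread between these libraries, which may be technical.

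Cytochrome c oxidase, or complex IV, is the last enzyme of the mitochondrial respiratory chain and passes electrons from cytochrome c to oxygen. Ndufa4 was first named as a subunit of complex I and is now counted among the subunits of complex IV. AA467197, also called Nmes1 and the mouse counterpart of human C15orf48, encodes a small mitochondrial protein related to NDUFA4 that can take its place in complex IV. The gene is known for its induction by inflammatory signals, and its transcript is also the host of the microRNA miR-147.

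AA467197 lies on the + strand of chromosome 2 (GRCm38, 122636986 to 122641191) with 4 annotated transcripts, and Ndufa4 on the - strand of chromosome 6 (11900292 to 11907497) with 5. Their longest annotated proteins have 83 and 82 residues, and 28 of 78 aligned residues (35.9%) were identical. The Mir147 hairpin (122640803 to 122640881) sits in the last exon of AA467197, within the 3′ UTR of the transcript that matches RefSeq, and ends 310 bases before the end of that transcript. The mature 5p arm is printed because it is a further product of the AA467197 transcript, with its seed (bases 2 to 8) in capitals, from RefSeq for GRCm38.p6 (chr2:122640814-122640837, + strand).
mmu-miR-147-5p: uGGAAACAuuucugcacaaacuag
The tables list no Mir147 entry, so the microRNA itself was not measured. The letters TGTTTCC, which pair with this seed, were in the 3′ UTR of neither gene, whereas 869 of the 4976 tested genes with an annotated 3′ UTR (17.5%) held them. The 3p arm was not analysed here, so this count covers the 5p seed alone.

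The promoter of AA467197 is printed because the change described below was in the level of its transcript. The window runs from 250 bases before to 50 bases after the RefSeq start (chr2:122637637-122637936, + strand, GRCm38.p6), and the capitals mark a match to the AP-1 motif TGACTCA, read as TGAGTCA on the other strand.
AA467197 promoter: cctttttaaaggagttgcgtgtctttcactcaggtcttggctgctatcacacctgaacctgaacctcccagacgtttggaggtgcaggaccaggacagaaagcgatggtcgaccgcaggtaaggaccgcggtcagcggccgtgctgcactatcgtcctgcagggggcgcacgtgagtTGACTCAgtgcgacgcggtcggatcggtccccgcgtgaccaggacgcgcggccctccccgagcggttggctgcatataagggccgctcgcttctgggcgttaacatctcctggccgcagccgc
The match begins 73 bases before the start. On both strands, 1709 of 32851 RefSeq promoter windows of this length (5.20%) held the AP-1 letters, and the Ndufa4 window held none. Neither window held the NF-kB consensus, found in 2779 windows (8.46%), or TATAAA, found in 4473 (13.6%). The 3 motifs were chosen with the sequence in view, and a match or its absence describes only the letters in this window.

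Library totals ranged from 73109 to 4733121 reads, a 64.7-fold range, and mixed WT library A02 was the shallowest. Levels are given as CPM, counts scaled to a library of 1000000 reads after TMM normalization, and 95% intervals of a library are exact Poisson intervals that cover counting error only, since reads include amplification copies. Fold changes are fitted on the log2 scale and given ± their standard error. All 12 intestinal epithelial markers were tested, and their summed level was 8337 to 19543 CPM in WT libraries and 5017 to 6956 CPM in cancer libraries. Epcam, Cdh1 and Vil1 had reads in all 8 libraries. Of 12 macrophage and leukocyte markers 5 were listed, and Csf1r, Fcer1g and Cd52 had 1 to 4 reads over all libraries together. Of 10 fibroblast and endothelial markers Col1a1 alone was listed, with 1 read. Apc and Trp53 had reads in both lines, and 3′ counts do not test the engineered alleles.

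AA467197 was lowest in pure WT cells and highest in mixed WT cells. In pure WT cells it had 155 reads in A01 and 127 reads in A05, or 142 and 71.4 CPM. In mixed WT cells it had 39 reads in the shallow library A02 and 469 in A06, or 511 (95% interval 364 to 699) and 1063 (969 to 1163) CPM. The mixed WT libraries thus lay above both pure WT libraries, and the 2 libraries of each WT group differed from each other by a factor of 2.08 in mixed and 1.99 in pure cells. The group means were 787 ± 390 CPM in mixed WT and 107 ± 49.8 CPM in pure WT cells (SD, n = 2), a 7.38-fold ratio. The fitted log2 fold change was 2.92 ± 0.51, and it was 2.18 without A06 and 2.31 on barcode counts. No test is given for this contrast because the gene was chosen by it, and in bulk RNA a change in the share of cells with the transcript and a change in RNA per cell cannot be told apart.

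In cancer cells the levels lay between those of the WT groups. Pure cancer cells had 63 reads of AA467197 in A03 and 127 in A07, or 331 and 380 CPM, and the mean was 355 ± 35.0 CPM (SD, n = 2). Mixed cancer cells had 979 reads in A04 and 37 in A08, and both libraries came to 192 CPM although their depths differed widely, with a 95% interval of 180 to 204 CPM in A04 and 135 to 265 CPM in A08. The order of the means was mixed WT, pure cancer, mixed cancer and pure WT, and no group overlapped with its neighbour in that order. The lowest library of a group stood above the highest library of the next by a factor of 1.34 between mixed WT and pure cancer, 1.72 between pure and mixed cancer, and 1.35 between mixed cancer and pure WT. The first and the last of these steps were smaller than the factor between the 2 libraries of mixed WT or of pure WT cells. Mixed WT cells had 2.88 times the mean of the 4 cancer libraries. Both mixed WT libraries were above all of the other 6 in 254 of the 5264 tested genes (4.83%), AA467197 among them. The rule chose AA467197 for this order, so it is given as a description.

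**Figure D1:**
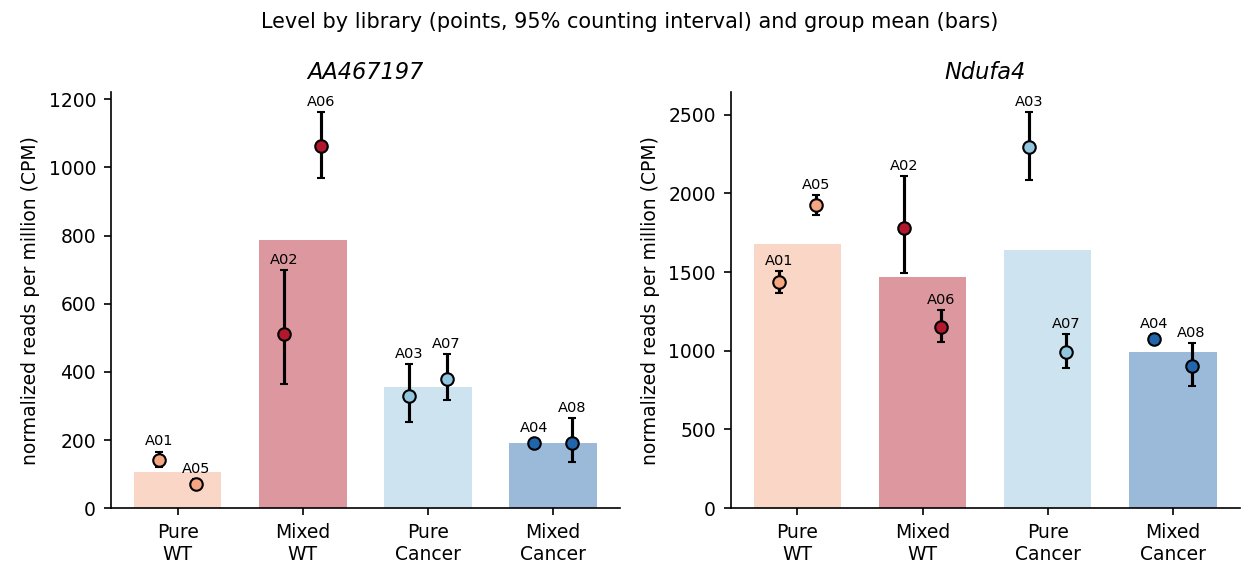
TMM-normalized CPM (linear axis from 0) of AA467197 (left) and Ndufa4 (right) in the 8 libraries. Points are libraries named by well with 95% counting intervals, and bars are means of 2 libraries. AA467197 reaches 511 and 1063 CPM in mixed WT cells against 71.4 to 380 CPM elsewhere, while the Ndufa4 libraries of pure WT, mixed WT and pure cancer cells overlap.

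Mixing went with opposite directions in the 2 lines. Both mixed cancer libraries were below both pure cancer libraries, with a fitted log2 fold change of -0.89 ± 0.49 (95% interval -1.90 to 0.12). This contrast was not part of the rule and was tested, and it did not pass (adjusted p = 1, edgeR quasi-likelihood test with Benjamini-Hochberg adjustment over 5264 genes). None of the 5264 genes passed in mixed against pure cancer cells (0%), where 69 genes had an unadjusted p under 0.05 and DESeq2 also called 0. The change on mixing in WT cells was 3.81 ± 0.70 higher on the log2 scale than the change in cancer cells, and 3.07 higher without A06. Across the tested genes, 115 (2.18%) had both mixed WT libraries above both pure WT libraries and both mixed cancer libraries below both pure cancer libraries. In the contrasts between lines, AA467197 was 1.75 ± 0.49 higher in pure cancer than in pure WT cells and differed by -2.06 ± 0.50 between mixed cancer and mixed WT cells, or by -1.36 without A06. These values share the libraries that chose the gene.

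Ndufa4, the ubiquitous relative, had no such order. Pure WT cells had 1568 reads in A01 and 3426 in A05, or 1435 and 1926 CPM. Mixed WT cells had 136 and 509 reads in A02 and A06, or 1783 and 1153 CPM. The 2 WT groups overlapped, with means of 1680 ± 347 and 1468 ± 445 CPM (SD, n = 2). The fitted log2 fold change of mixed against pure WT cells was -0.21 ± 0.43, with a 95% interval of -1.10 to 0.69, and it did not pass (adjusted p = 0.937, edgeR). In that comparison 39 of 5264 tested genes passed (0.741%), and Ndufa4 was not among them. A change of Ndufa4 as large as the fitted 2.92 of AA467197 is outside its interval.

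Ndufa4 spread most in pure cancer cells, with 437 reads in A03 and 332 in A07, or 2294 and 994 CPM. Mixed cancer cells had 5507 reads in A04 and 174 in A08, or 1078 and 903 CPM. The pure and mixed cancer libraries overlapped, with means of 1644 ± 919 and 990 ± 124 CPM (SD, n = 2). The fitted log2 fold change of mixed against pure cancer cells was -0.72 ± 0.44 (95% interval -1.62 to 0.18, adjusted p = 1, edgeR), and it was 0.00101 without A03. Both mixed cancer libraries were below both mixed WT libraries, by -0.55 ± 0.44 (-1.46 to 0.35, adjusted p = 0.601, edgeR), in a comparison in which 338 genes (6.42%) passed. Pure cancer and pure WT cells differed by -0.04 ± 0.43 (-0.93 to 0.86, adjusted p = 0.977, edgeR), where 524 genes (9.95%) passed. The difference between its changes on mixing in the 2 lines was 0.52 ± 0.61 (-0.75 to 1.79, adjusted p = 0.906, edgeR), where 4 genes (0.0760%) passed. Ndufa4 passed in none of these 5 comparisons, and its intervals together spanned -1.62 to 1.79.

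**Figure D2:**
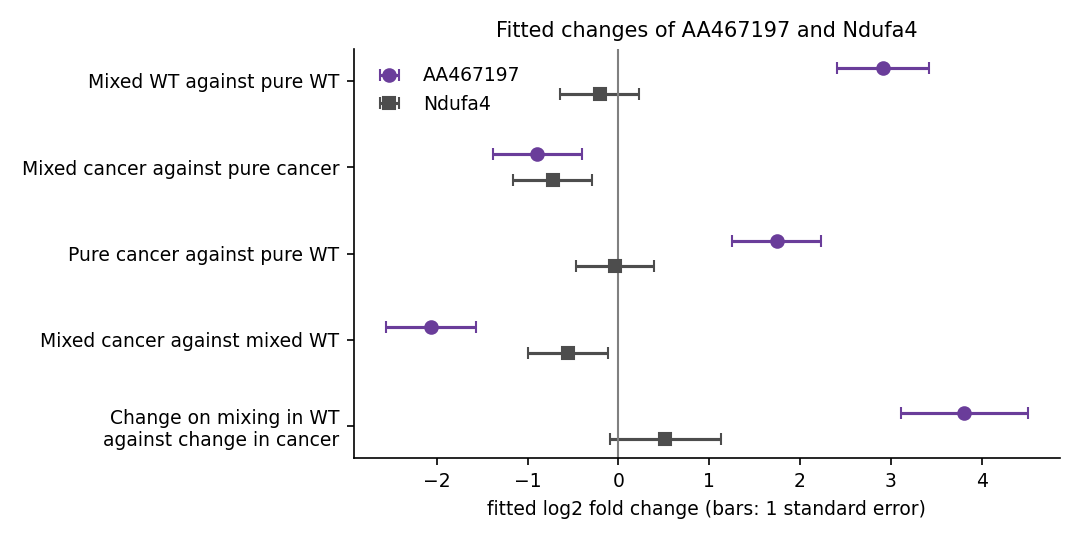
Fitted log2 fold changes (horizontal axis) of AA467197 (circles) and Ndufa4 (squares) in 5 comparisons, with bars of 1 standard error. AA467197 is at 2.92 in mixed against pure WT cells and at -0.89 in mixed against pure cancer cells, and Ndufa4 stays between -0.72 and 0.52.

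The 2 genes were also set against each other inside each library, which removes the library's depth and scaling. The height of this ratio depends on how well each 3′ end was captured, so only its differences between libraries are described. AA467197 reads were 9.89% and 3.71% of Ndufa4 reads in pure WT libraries A01 and A05, and 28.7% and 92.1% in mixed WT libraries A02 and A06. In pure cancer libraries A03 and A07 they were 14.4% and 38.3%, and in mixed cancer libraries A04 and A08 they were 17.8% and 21.3%. The WT groups were apart and the cancer groups overlapped. Mixed WT and pure cancer also overlapped, since A07 (38.3%) was above A02 (28.7%). By estimated transcripts these 2 libraries were at 77.1% and 55.9%. The geometric mean was 8.49 times higher in mixed than in pure WT cells, and this factor was 4.74 without A06, 5.20 without A05, 13.9 without A01 and 15.2 without A02.

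Molecule barcodes also put both mixed WT libraries above both pure WT libraries in this ratio. Estimated transcripts of AA467197 were 22.4% and 8.51% of those of Ndufa4 in pure WT cells, against 55.9% and 149% in mixed WT cells, a factor of 6.60. On barcode counts the factor was 2.53. A library can show at most 256 barcodes for a gene, and Ndufa4 had 250 in A05 and 254 in A04. AA467197 had 217 in A04 and 175 in A06, for which the deposited estimates were 481 and 294 transcripts. Barcode counts of both genes were therefore compressed at high levels, and so were the differences computed from them. AA467197 had 90 and 70 barcodes in A01 and A05, and 25 and 175 in A02 and A06. Reads per barcode were 1.72 in A01 and 1.81 in A05, against 1.56 in A02 and 2.68 in A06, the highest of the WT libraries.

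**Figure D3:**
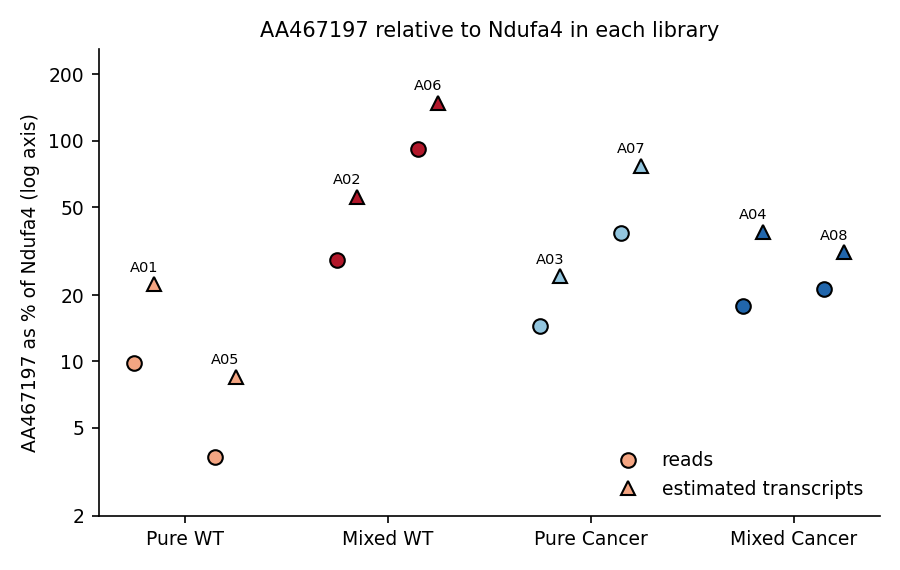
AA467197 as a percentage of Ndufa4 in each library (log axis), from reads (circles) and estimated transcripts (triangles). By reads, pure WT libraries lie at 3.71% and 9.89% and mixed WT libraries at 28.7% and 92.1%, and the cancer libraries fall between 14.4% and 38.3%.

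Among the other parts of complex IV, the nuclear subunits were split evenly in WT cells. Of 10 nuclear subunits 5 were fitted higher and 5 lower in mixed than in pure WT cells. Their median log2 fold change was -0.03 beside -0.10 over all tested genes, and none passed. Cox5b had means of 1066 CPM in pure and 527 CPM in mixed WT cells (-1.03 ± 0.43, adjusted p = 0.391, edgeR), and Cox7a2 of 469 and 720 CPM (0.60 ± 0.45, adjusted p = 0.743, edgeR). Between mixed cancer and mixed WT cells all 10 nuclear subunits were fitted lower, with a median of -0.48 beside 0.12 over all tested genes, and none passed.

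The 3 mitochondrial subunits, which form the catalytic core, were all fitted higher in mixed WT cells. Their median was 0.79, and none passed. mtCo1 was at 4798 and 7205 CPM in the pure WT libraries and at 14839 and 14089 CPM in the mixed WT libraries (1.27 ± 0.37, adjusted p = 0.129, edgeR). mtCo3 passed between mixed cancer and mixed WT cells, lower in cancer cells (log2 difference -1.86 ± 0.46, adjusted p = 0.0132, edgeR), and that call was lost on barcode and on transcript counts. Tissue isoforms of complex IV were hardly detected. Of 8 listed, 3 were in the tables and none was tested, with at most 29 reads of Cox7a1 in a library.

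Assembly factors of complex IV and the NDUFA subunits of complex I, the family in which Ndufa4 was first placed, were tested in 18 of 27 and 13 of 13 cases. No gene of either list passed in mixed against pure WT cells, with 9 of 18 assembly factors and 3 of 13 NDUFA subunits fitted higher and medians of 0.01 and -0.45. The furthest NDUFA subunits were Ndufa8 (-0.91 ± 0.48, adjusted p = 0.565, edgeR) and Ndufa10 (-0.73 ± 0.69, adjusted p = 0.80, edgeR). Of the 18 tested assembly factors 1 passed between pure cancer and pure WT cells, where 9.95% of all tested genes passed. This was Cox15, which takes part in heme A synthesis, lower by 3.52 ± 1.00 on the log2 scale in pure cancer cells (adjusted p = 0.0236, edgeR). The call was lost on barcode and transcript counts, by DESeq2, and without A05 or A07. Cox15 was at 5.25 and 5.99 CPM in A03 and A07, where 3 reads over both libraries make 5.72 CPM. In mixed cells its means were 33.7 ± 29.2 CPM in WT and 40.6 ± 20.7 CPM in cancer cells (SD, n = 2).

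**Figure D4:**
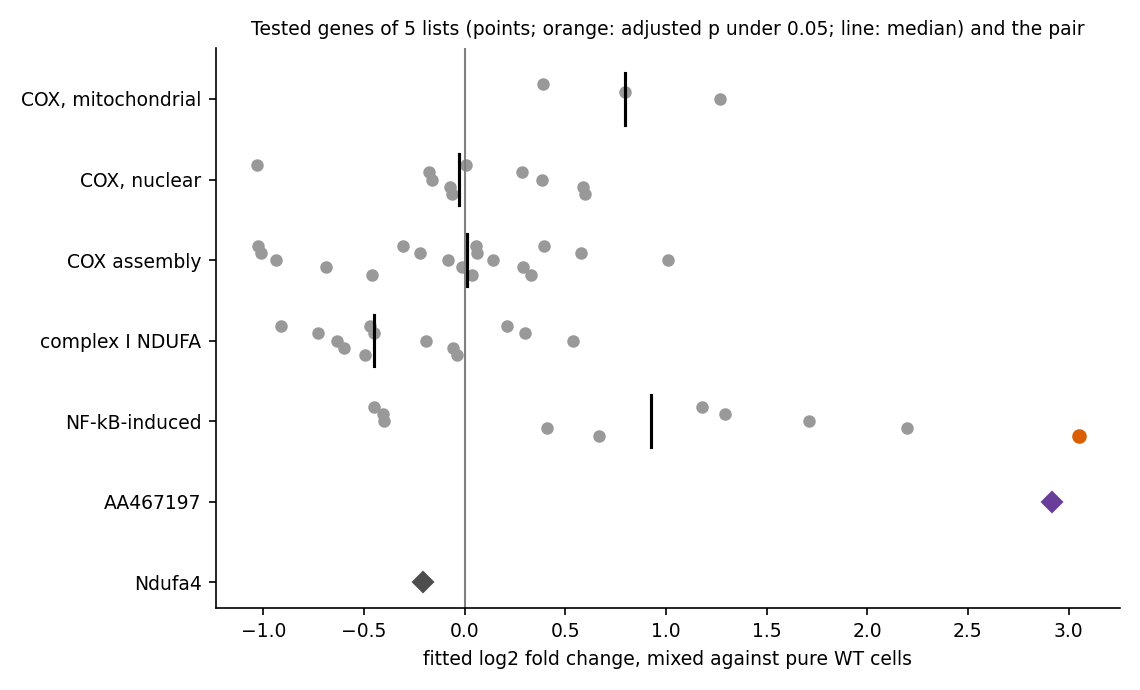
Fitted log2 fold changes (horizontal axis) between mixed and pure WT cells for the tested genes of 5 lists, with AA467197 and Ndufa4 as diamonds. Grey points did not pass, orange points had an adjusted p under 0.05, and black lines are list medians. AA467197 at 2.92 lies beyond every gene of the complex IV and complex I lists. Ndufa4 at -0.21 lies below the mitochondrial subunits (lowest 0.39) and within the other complex IV and complex I lists.

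Genes induced by NF-kB were examined because AA467197 is known as an inflammatory gene. Of 35 listed genes 30 were in the tables and 11 were tested, and Lcn2 had no read in the WT libraries and so no fold there. Of the other 10 in mixed against pure WT cells, 7 were fitted higher and 3 lower, with a median of 0.92 beside -0.10 over all tested genes. Ier3, a stress-induced survival gene, was the 1 gene that passed (3.05 ± 0.71, adjusted p = 0.0399, edgeR), beside 0.741% of all tested genes. Its levels were 31.1 and 3.93 CPM in pure and 52.4 and 193 CPM in mixed WT libraries. That call was lost without A05 (adjusted p = 0.437, edgeR) or without A06 (adjusted p = 0.493, edgeR).

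Of the 11 tested genes of this list 4 passed as higher in pure cancer than in pure WT cells, where 9.95% of all tested genes passed, and the other 7 did not pass. Between the mixed lines 1 of the 11 passed, as higher in cancer cells, beside 6.42% of all tested genes. The 4 genes of the pure lines were Ier3 (4.40 ± 0.72, adjusted p = 0.000191, edgeR), Tnfaip2 (4.89 ± 0.97, adjusted p = 0.00138, edgeR), the chemokine gene Cxcl16 (2.56 ± 0.76, adjusted p = 0.0307, edgeR) and Lcn2, which encodes the iron-scavenging protein lipocalin 2. Cxcl16 was no longer called without A05 or A07 or at a minimum count of 50. Lcn2 had 4, 83, 19 and 15 reads in A03, A04, A07 and A08 and 0 in all 4 WT libraries, and was at least 37.3-fold higher in pure cancer cells against a floor of 3 reads over the pure WT libraries. Tnfaip2 also passed between mixed cancer and mixed WT cells (4.12 ± 1.21, adjusted p = 0.0397, edgeR), and lost that call by DESeq2, in a fit of those 4 libraries, and without A04 or A06. It had 2 reads over both mixed WT libraries and 465 over both mixed cancer libraries, a ratio of 22.7 (95% counting interval 6.25 to 188). Both mixed WT reads were in A02, at 26.2 CPM beside 1.83 and 2.25 CPM in pure WT libraries A01 and A05. AA467197 was higher in mixed WT than in cancer cells, and the 11 tested genes of this list went both ways. Ier3, Tnfaip2, Cxcl16, Lcn2, Nfkb1, Nfkb2 and Sod2 had lower means in mixed WT than in either cancer group. Tnip1 lay between those groups. Nfkbia, Relb and Nfkbib had their highest mean in mixed WT cells. For Nfkbia it was 231 CPM, against 174 (mixed cancer), 132 (pure cancer) and 71.2 (pure WT). Its rise over pure WT cells did not pass (adjusted p = 0.207, edgeR). Relb and Nfkbib were low, at means of 26.1 and 25.3 CPM. Lcn2, as a transcript of the cancer line, was not detected in A02 or A06. For these 2 libraries pooled, a count of 0 allows up to 5.80 CPM. Its means were 38.9 ± 25.4 and 47.0 ± 43.5 CPM in pure and mixed cancer cells (SD, n = 2). In A02 alone, where 1 read came to 13.1 CPM, a count of 0 says little about Lcn2.

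Among the 12 epithelial markers none passed in mixed against pure WT cells, 2 were lower in pure cancer than in pure WT cells, where 9.95% of all tested genes passed, and 5 were lower in mixed cancer than in mixed WT cells, where 6.42% passed. Cdx1, an intestinal transcription factor, had 302 reads in A01, 477 in A05 and none in A03 or A07, and was at least 47.6-fold lower in pure cancer cells against a floor of 3 reads over those libraries. Lgals4, an epithelial lectin gene, differed by -3.74 ± 0.49 between the pure lines and by -3.99 ± 0.50 between the mixed lines on the log2 scale, lower in cancer cells both times (adjusted p = 1.41e-05 and 8.51e-06, edgeR). On barcode counts the difference between the pure lines was -1.13 and the call was lost (adjusted p = 0.472, edgeR). Krt8, Krt20, Cdx1 and Cdx2 were also lower in mixed cancer than in mixed WT cells, with log2 fold changes from -6.66 (Cdx1, adjusted p = 8.58e-05, edgeR) to -1.83 (Krt8, adjusted p = 0.00978, edgeR), and each of these 4 calls was lost without A06. Krt8 in A06, at 8498 CPM, was above the 1292 to 3212 CPM of the other 7 libraries, in the same library in which AA467197 was highest. The part of cell state in the AA467197 values was not tested.

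Cd14 and Cd68, which macrophages express, were the 2 tested genes of the leukocyte list. Cd14 was 2.81 ± 0.70 higher in mixed cancer than in mixed WT cells (adjusted p = 0.0125, edgeR; adjusted p = 0.0660 without A06). Cd68 was called higher in pure cancer than in pure WT cells (5.52 ± 1.46, adjusted p = 0.0154, edgeR), with 23 reads in A07, 0 in A03 and 2 over both pure WT libraries. The ratio of the pooled reads was 62.9 (95% counting interval 15.6 to 551), and without A07 the fit turned to -3.04 and without A01 or A05 the call was lost. The summed level of the leukocyte list was 26.2 to 49.8 CPM in mixed WT, 47.6 to 108 CPM in pure WT and 121 to 473 CPM in cancer libraries. It was 49.8 CPM in A06, where AA467197 was highest.

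The genes whose levels followed AA467197 most closely over the 8 libraries were ranked by Pearson correlation of log2 CPM among 2744 other genes with at least 50 reads per library on average. The first 8 were Sat1 (r = 0.94), Txnrd1 (0.93), Casp8 (0.93), Sc4mol (0.92), Blvrb (0.90), Id1 (0.90), Cbr3 (0.88) and Rnf186 (0.88). Sat1, which starts polyamine breakdown, had means of 1470 CPM (mixed WT), 1117 CPM (pure cancer), 740 CPM (mixed cancer) and 403 CPM (pure WT), in the order of AA467197. Txnrd1, Blvrb and Cbr3 encode a thioredoxin reductase, a biliverdin reductase and a carbonyl reductase, Casp8 an initiator caspase, and Id1 an inhibitor of helix-loop-helix factors. Sat1 was the 1 gene of these 8 called in mixed against pure WT cells, where 0.741% of all tested genes passed. The 8 were picked for likeness to a gene that was itself chosen by its rise in that comparison. The points share libraries, depth and scaling, and the correlations are descriptions without a test.

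Ndufa4 ranked at place 1490 of 2744 in likeness to AA467197 (r = -0.17). The 5 genes most like Ndufa4 were Atp5l (r = 0.93), Eif4g2 (0.92), Ndufs3 (0.92), Atp5j2 (0.92) and Bola2 (0.92). Atp5l and Atp5j2 encode parts of ATP synthase and Ndufs3 a core subunit of complex I. Like Ndufa4, all 5 had their lowest mean in mixed cancer cells.

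The surroundings of the genes gave little to compare. Within 250000 bases, no gene before AA467197 was tested, and the nearest tested gene after it was the zinc transporter gene Slc30a4, 40042 bases away. Slc30a4 had 0 to 80 reads per library and did not pass in mixed against pure WT cells (1.54 ± 1.04, adjusted p = 0.702, edgeR). No gene within that distance of Ndufa4 was tested. In the last 500 bases of its annotated transcripts, 30 of 913 windows of 50 bases from AA467197 (3.29%) occurred in another annotated gene, all of them in Mir147, and 0 of 649 windows from Ndufa4 did, so no window was shared between the 2 members.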

How the data were processed

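RNA of cells sorted on day 3 was sequenced with CEL-Seq, a 3′ end method. Per the paper's methods and the submitters' processing notes, the authors aligned reads to the mm10 RefSeq transcriptome with BWA, discarded reads with several equal matches and assigned genes with featureCounts. Deposited were raw read counts, barcode counts, and estimated counts of transcripts that they derived from the barcodes. Their DESeq2 1.22.2 table of mixed against pure WT cells holds fold changes and p-values and was not used. A spike-in and eGFP (2 entries, 1 read in all) were left out.

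Read counts of all 8 libraries were fitted with edgeR 4.0.16 (R 4.3.3; TMM, filterByExpr minimum count 10, quasi-likelihood test, Benjamini-Hochberg over 5264 genes), after testing on simulated data. Both members passed the filter. Alternatives were barcode counts, transcript counts rounded to whole numbers, other size factors or filters, a fit of the 4 libraries concerned, leaving out each library, and DESeq2 1.42.0. The alternatives for the member ratio, the list genes and the AA467197 difference between lines were added after seeing the data. The members and lists were chosen with earlier results of these data known. Named are the members, list genes called (or the 2 with the largest change), and the nearest tested neighbours. Every tested NF-kB gene is also named, as are the 8 and 5 genes most like each member. Positions, transcripts and translated proteins came from GENCODE annotation of GRCm38 and proteins were aligned with Biopython 1.88. Wells name replicates, and no pairs were formed. A further engineered allele of the cancer line is not reported here.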

Additional observations from a re-analysis of the deposited data

Results flagged for a closer look

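AA467197 moved in opposite directions on mixing in the 2 lines. Both mixed WT libraries (511 and 1063 CPM) were above both pure WT libraries (142 and 71.4 CPM), and both mixed cancer libraries (192 CPM each) were below both pure cancer libraries (331 and 380 CPM). The fitted difference between the changes was 3.81 on the log2 scale. The difference was not tested, because the gene was chosen for its rise in mixed WT cells, and the fall in cancer cells alone did not pass (adjusted p = 1, edgeR). Groups of 2 libraries are too small for a check of single libraries that stand apart.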

How the results depend on the processing

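AA467197 kept its directions in all alternatives run. With 1 library left out, where a lone library is assumed to vary like the others, its log2 fold changes ranged from 2.18 to 3.49 (mixed against pure WT), -0.98 to -0.72 (mixed against pure cancer), 1.41 to 2.26 (pure cancer against pure WT), -2.47 to -1.36 (mixed cancer against mixed WT) and 3.07 to 4.34 (difference between lines). Ndufa4 was called in no alternative. Its ranges were -0.59 to 0.0753, -1.14 to 0.00101, -0.81 to 0.35, -0.79 to -0.22 and -0.31 to 0.90 in the same order. Barcode counts turned Ndufa4 to 1.04 in mixed against pure WT cells and to 1.01 in pure cancer against pure WT cells. The latter was also 0.14 on transcript counts, 0.00468 with median-of-ratios factors, 0.0130 with upper-quartile factors and 0.00236 by DESeq2. The ratio of AA467197 to Ndufa4 in mixed over pure WT cells was 2.53 on barcode counts and 4.74 to 15.2 with 1 library left out. For 21 results of list genes, 293 of 322 alternatives kept direction and call, 27 lost the call and 2 reversed, Cox5b to 0.41 on barcode counts and Cd68 to -3.04 without A07 (left-out range -3.04 to 6.38). Genes called in mixed against pure WT cells numbered 39, against 93 on barcode counts, 82 on transcript counts, 68 without a filter, 66 by DESeq2, 108 in the fit of 4 libraries and 2 to 118 with 1 library left out (2 without A06, 8 without A05). A minimum count of 50 called 232 instead of 524 and 151 instead of 338 genes between lines, and with 1 library left out these were 261 to 745 and 167 to 506. The difference between lines had 4 genes called, and 1 to 32 elsewhere. The cause of these differences was not tested. A02, with 39 AA467197 reads, limits the precision of mixed WT values. No paired fit was run, because the labels give the groups no shared replicate numbers and do not say that the order of the wells pairs them.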
